A study of Caenorhabditis elegans with 2 samples.

Results

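The cadherin genes of Caenorhabditis elegans encode cell-surface proteins with extracellular cadherin repeats, and 10 of them were examined for binding by the homeodomain protein CEH-43 among the 19985 protein-coding genes of the annotation. The 10 genes (cdh-1, cdh-3, cdh-4, cdh-5, cdh-7, cdh-8, cdh-12, fmi-1, hmr-1 and casy-1) were selected on earlier results from these same peak lists, so their counts and ranks are a description and carry no test. Binding was measured by chromatin immunoprecipitation with sequencing (ChIP-seq), which maps where a protein sits on DNA, in embryos of strain OP699 collected by egg bleaching. The strain carries the transgene wgIs699, which holds ceh-43::TY1::EGFP::3xFLAG and an unc-119(+) rescue gene, in an unc-119(tm4063) background. The tag is at the C-terminus and the chromatin was precipitated through its fluorescent protein. The 2 biological replicates form 1 group of mixed-sex, mixed-stage embryos with a stated age of 3 hours. Whole embryos were used, so the cell type in which a site was bound cannot be told from these lists. No peaks from worms without the tag were used, and the tagged protein was made from added copies of ceh-43.

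CEH-43 is the worm member of the Distal-less homeodomain family and is known from genetics for its role in the anterior epidermis and in dopamine neurons. Classical cadherins hold epithelial cells together at adherens junctions, where their cytoplasmic tails bind catenins that link them to actin. In C. elegans this role falls to HMR-1. Larger cadherins of the Flamingo, Fat and Dachsous types act in planar polarity and axon guidance in animals, and fmi-1, cdh-4 and cdh-1 are their worm relatives. cdh-3 is related to Fat and acts in epithelial morphogenesis, and casy-1 encodes the calsyntenin, a neuronal protein needed for learning.

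CEH-43 peaks passed the authors' reproducibility threshold at 5 of the 10 genes, cdh-4, cdh-12, fmi-1, cdh-1 and hmr-1, with 7 summits in all, of which hmr-1 had 3 (10.2% of all protein-coding genes had such a summit, and 16.9% of those with as long a span to search). A summit, the position of highest signal in a peak, was counted for a gene when it lay within the gene or within 5000 bp of one of its annotated start sites. None of the 7 was near the top of the list: their ranks by the authors' signal value, 1 being the strongest, ran from 468 to 848, and only that at cdh-4 was among the 499 strongest of the thresholded peaks. The word TAATTA or TAATTG, the core of the site that Distal-less type homeodomains bind, lay within 50 bp of 5 of the 7 summits (71.4%, exact 95% interval 29.0 to 96.3%), against 32.6% of all thresholded summits. The sequences below show 40 bases on each side of the summit, 5′ to 3′ on the forward strand of ce11 (WBcel235, RefSeq copy), with either word, on either strand, in capitals. They are the thresholded summits at 4 of the 5 genes and, for comparison, the next summits at cdh-4 and cdh-12 below the threshold. Those 2 do not stand for all such summits. The next ones at fmi-1, ranks 1196 and 1370, and at hmr-1, rank 1958, had neither word within 50 bp.
cdh-4, rank 468, chrIII:4519529-4519609: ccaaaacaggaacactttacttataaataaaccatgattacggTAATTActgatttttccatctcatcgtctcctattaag
cdh-1, rank 658, chrIII:2913101-2913181: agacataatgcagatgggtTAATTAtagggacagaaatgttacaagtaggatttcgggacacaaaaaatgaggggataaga
fmi-1, rank 639, chrV:13018366-13018446: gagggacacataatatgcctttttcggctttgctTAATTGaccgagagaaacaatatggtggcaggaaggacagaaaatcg
cdh-12, rank 570, chrIII:1160708-1160788: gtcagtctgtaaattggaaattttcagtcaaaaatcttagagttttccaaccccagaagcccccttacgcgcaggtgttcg
cdh-4, rank 999, chrIII:4515317-4515397: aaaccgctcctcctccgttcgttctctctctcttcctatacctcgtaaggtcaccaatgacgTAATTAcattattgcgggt
cdh-12, rank 1500, chrIII:1162164-1162244: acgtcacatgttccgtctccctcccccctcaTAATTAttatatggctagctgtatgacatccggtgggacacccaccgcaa
In the first 3 the centre of the word was 5.5 bp from the summit at cdh-4, 18.5 bp at cdh-1 and 3.5 bp at fmi-1. The cdh-12 summit of rank 570 had neither the word nor the shorter TAAT in the 81 bases shown.

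The whole set of summits was first placed along the genes. The relaxed list that the authors made from both replicates, which holds 30000 peaks and background regions, had summits at all 10 genes (85.2% of protein-coding genes had one), 133 in all. The number per gene ran from 2 at cdh-7 to 54 at hmr-1, against a median of 3 over all protein-coding genes. Cadherin genes are long, and the span searched ran from 12.7 kb at cdh-7 and cdh-5 to 63.9 kb at hmr-1, against a median of 10 kb over all protein-coding genes. Per length, the 259.8 kb searched held 51.2 relaxed summits per 100 kb, against 29.9 over the nuclear chromosomes, and 40.3 without hmr-1. For thresholded summits the values were 2.69 per 100 kb, 0.972 over the nuclear chromosomes and 2.04 without hmr-1.

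**Figure D1:**
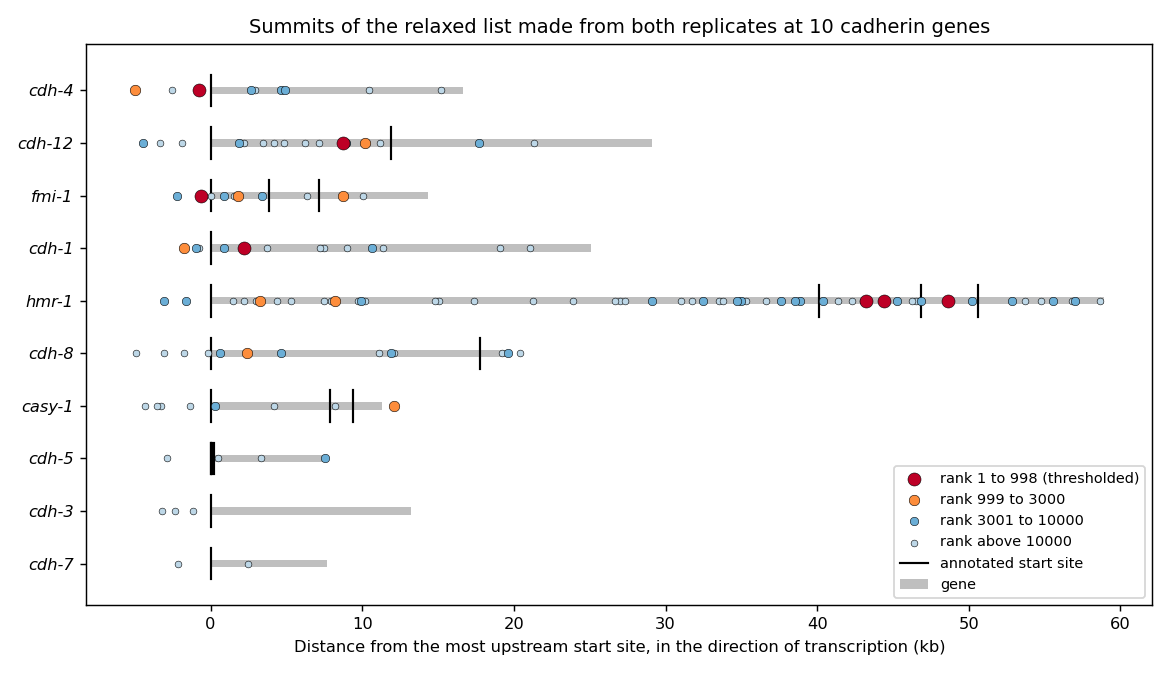
Relaxed-list summits at the 10 cadherin genes, plotted by distance in kb from the most upstream start site in the direction of transcription, with genes as grey bars, annotated start sites as vertical lines and points coloured by rank in the list made from both replicates. The 7 thresholded summits, in dark red, lie upstream of the first start site at cdh-4 and fmi-1 and inside the gene at cdh-1, cdh-12 and hmr-1.

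The 16.9% above is the share among the 2110 genes whose span was at least as long as the shortest of the 10. Since the 10 genes were chosen from these peaks, nothing is read from their 5 against it. By position, 5 of the 7 summits were in introns and 2 in promoters, a promoter being the 1000 bp before a start site of a protein-coding gene. Over all thresholded summits the order was the reverse, with 47.1% in promoters and 23.6% in introns. In the relaxed list, 75 of the 133 summits were in introns (56.4%, against 30.4% of all relaxed summits) and 16 in promoters (12%, against 28.0%). Coding exons held 19 (14.3%, against 13.4%), the space between genes 17 (12.8%, against 21.1%) and untranslated regions 6. Of the 5 thresholded intronic summits, 3 were at hmr-1. The summits at the 10 genes were taken only from within or near long genes, while the whole lists cover the genome. How much of the searched span is intron or promoter was not measured, so nothing about binding is read from these differences.

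The 10 genes spread widely by the rank of their strongest summit. In the list from both replicates the strongest was at rank 468 for cdh-4, 570 for cdh-12, 639 for fmi-1, 658 for cdh-1 and 695 for hmr-1. The same 5 genes had a summit among the strongest of replicate 1, taking as many peaks as the thresholded list holds, at ranks 321, 608, 392, 975 and 404 in that order of genes (10.1% of protein-coding genes had one). In replicate 2 only cdh-1 at 494, cdh-4 at 699 and cdh-12 at 704 were among that many of its strongest (9.76% of protein-coding genes). The order among the 5 was not resolved, since it differed between the replicates. Below them came cdh-8 at rank 1507 and casy-1 at 2539, then cdh-5 at 7072, cdh-3 at 12832 and cdh-7 at 15992. The last 3 were also beyond rank 7000 in each replicate's own list of 29979 peaks for replicate 1 and 26127 for replicate 2.

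**Figure D2:**
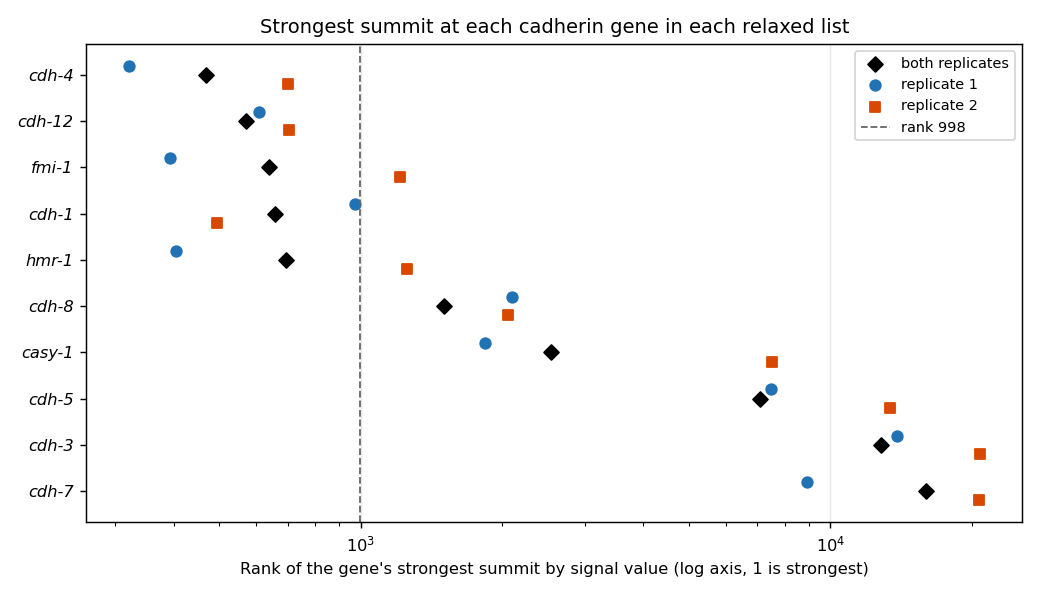
Rank of the strongest summit at each of the 10 genes on a log axis in the relaxed lists of both replicates together (black), replicate 1 (blue) and replicate 2 (orange), with a dashed line at the rank that equals the length of the thresholded list. cdh-4, cdh-12 and cdh-1 lie left of the line in each of the 3 lists, fmi-1 and hmr-1 in replicate 1 and in the combined list, and the other 5 genes in none.

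Among the polarity and guidance cadherins, cdh-4, the Fat relative, had the strongest summit of the 10 genes in the combined list and in replicate 1, while in replicate 2 that at cdh-1 ranked ahead of it. It lay 788 bp upstream of the cdh-4 start site on chromosome III, in a peak at 4519341 to 4519796 with an authors' signal value of 192. Replicate 2 had its summit 8 bp away at rank 699. Replicate 1 had summits on both sides, at rank 1998, 95 bp away, and at rank 321, 110 bp away. The nearer of these was taken by the 100-bp rule for a shared summit, so the value for replicate 1 depends on that rule. A further cdh-4 summit lay 5000 bp upstream of the start site, at the edge of the span searched, and was the first peak below the threshold, at rank 999. Its ranks were 1054 in replicate 1 and 1676 in replicate 2, and it had TAATTA in the sequence printed above. cdh-4 lies on the same chromosome as ceh-43 itself, with its strongest summit 69.6 kb from the ceh-43 gene. How much genomic DNA around ceh-43 the transgene holds is not stated in the labels, and its part in peaks this near was not tested.

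fmi-1, the Flamingo relative, is known for the guidance of pioneer axons in the worm's ventral nerve cord. Its thresholded summit lay 655 bp upstream of the start of its longest transcript, F15B9.7a.1, in a peak on chromosome V at 13018178 to 13018633, and ranked 639. The replicates differed widely here, with rank 392 in replicate 1 and 7217 in replicate 2. A ratio of ranks above 10, as here (18.4), was seen at 31 of the 945 thresholded summits found in both replicates (3.28%). The median ratio over those 945 was 1.77. The hmr-1 summit of rank 848, described below, was also above 10, at 14.6. The strongest fmi-1 summits of replicate 2 were elsewhere in the gene, at ranks 1214 and 1411. That at 1411 was in a coding exon, 1369 bp downstream of the start of F15B9.7c.1, and had no summit within 100 bp in the other lists. The first was at an intronic summit 1827 bp downstream of the F15B9.7a.1 start, which ranked 1214 in replicate 2 and 3885 in replicate 1, and 1370 in the combined list. Another intronic summit, 1598 bp downstream of the start of the shortest transcript, F15B9.7c.1, ranked 951 in replicate 1 and 3099 in replicate 2, and 1196 in the combined list. Neither combined intronic summit had TAATTA or TAATTG within 50 bp, but replicate 1's own summit at the latter had TAATTG 46.5 bp away.

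cdh-1, the Dachsous relative, had its thresholded summit in an intron, 2235 bp downstream of its only annotated start site on chromosome III, in a peak at 2912913 to 2913368. It ranked 658 in the combined list, 975 in replicate 1 and 494 in replicate 2, and so was within the length of the thresholded list in each. A second cdh-1 summit lay 1780 bp upstream of the start, at rank 1355 (3026 in replicate 1 and 1135 in replicate 2), with TAATTG 30.5 bp from it. Of the 13 relaxed summits at cdh-1, 7 were nearer to the start of R10F2.4 or R10F2.5 than to that of cdh-1.

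cdh-12 had its thresholded summit in an intron as well, in a peak on chromosome III at 1160520 to 1160975. It lay between the gene's annotated starts, 3166 bp upstream of that of the shorter transcript, Y71D11A.1b.1. The nearest summit ranked 608 in replicate 1 and 704 in replicate 2. These were not at 1 position: the replicate 1 summit was 84 bp to one side of the combined summit and the replicate 2 summit 82 bp to the other, so that they were not within 100 bp of each other. The replicate 2 summit that was near the replicate 1 summit, 42 bp from it, ranked 6488. The combined summit had no TAATTA or TAATTG within 50 bp, but each replicate's own summit had one, and the word was within 100 bp of the combined summit. The next summit, 1710 bp upstream of the same start, was at rank 1500 with TAATTA (rank 1050 in replicate 1 and 4888 in replicate 2). Of the 16 relaxed summits at cdh-12, 14 had a cdh-12 start as the nearest.

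**Figure D3:**
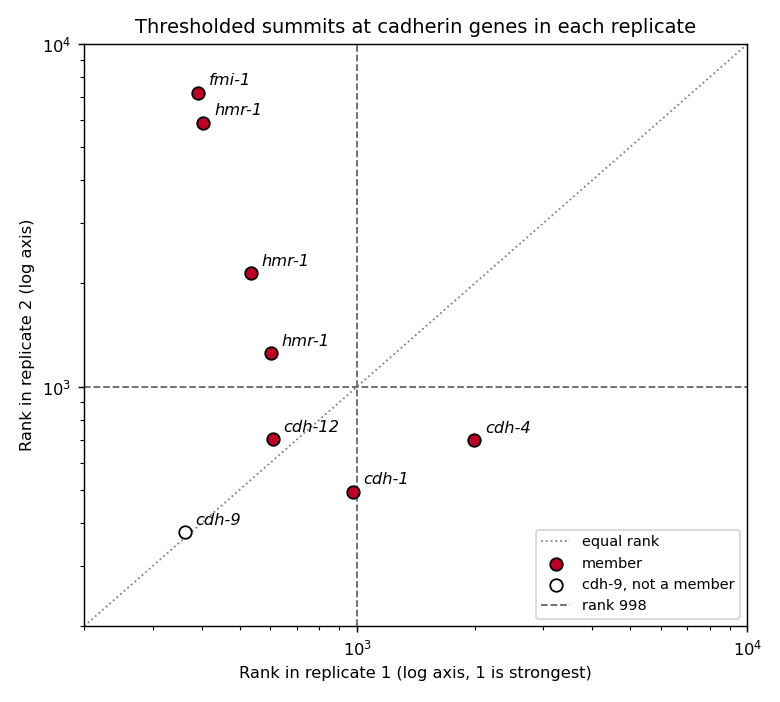
Rank in replicate 1 (x axis) against rank in replicate 2 (y axis), both on log axes with 1 the strongest, for the 7 thresholded summits at the cadherin genes (filled) and that at cdh-9 (open). The dotted line marks equal rank and the dashed lines the rank that equals the length of the thresholded list. The fmi-1 summit (392 and 7217), the 3 hmr-1 summits and those at cdh-12 and cdh-9 lie above the line of equal rank, the last 2 close to it, and cdh-1 and cdh-4 lie below. The side for cdh-4 depends on the 100-bp rule, since it is plotted at rank 1998 in replicate 1, where a summit 110 bp away ranked 321. The cdh-12 point pairs replicate summits 84 bp and 82 bp to opposite sides of the combined one. The replicate 2 summit 42 bp from the replicate 1 summit ranked 6488.

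hmr-1, the classical cadherin, had the most relaxed summits of any protein-coding gene, 54, and only 4 genes, itself included, had a span as long. By density, 0.845 summits per kb, 1.33% of protein-coding genes were as dense or denser. It was the only one of the 10 with 3 or more thresholded summits (0.175% of protein-coding genes, 35 in all). The gene is on the reverse strand of chromosome I at 11075755 to 11134667. Its longest transcript, W02B9.1b.1, starts 40.1 kb upstream of the start of W02B9.1a, and the worm is known to make a neuronal HMR-1 form from the distant start and the junctional form from the inner one. All 3 thresholded summits were in introns downstream of the W02B9.1a start, within 5.37 kb of each other. In the combined list, none of the 33 relaxed summits between those starts was stronger than rank 1958, and the 2 upstream of the distant start were no stronger than rank 3023.

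The first of the hmr-1 summits, at rank 695, lay 3108 bp downstream of the W02B9.1a start, in a peak at 11091190 to 11091645, with TAATTA 13.5 bp from the summit. It ranked 602 in replicate 1 and 1254 in replicate 2. The second, at rank 819, lay 1784 bp downstream of the start of the shorter transcript W02B9.1d.1, in a peak at 11085820 to 11086275. It had no core word within 50 bp and ranked 535 in replicate 1 and 2145 in replicate 2, where the replicate's own summit, 41 bp away, had TAATTG 17.5 bp from it. The third, at rank 848 and the weakest of the 7, lay 2419 bp upstream of that same start, in a peak at 11090023 to 11090478, with TAATTA 4.5 bp from the summit. It ranked 404 in replicate 1 but 5894 in replicate 2, whose summits lay 35 bp and 88 bp to opposite sides of the combined one. All 3 were thus within the length of the thresholded list in replicate 1 and none was in replicate 2, where the strongest hmr-1 summit was the first of them.

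The summits around the distant hmr-1 start were weaker in the combined list and in replicate 1, but not in replicate 2. There, summits 3152 bp downstream of it, 3009 bp upstream of it and 9942 bp downstream of it ranked 1566, 1695 and 1872. These were behind the first inner summit at 1254 and ahead of the other inner ones at 2145 and 5894. The summit of rank 1872 was nearer to the start of Y52B11B.1, 985 bp away. In the combined list one summit lay 3233 bp downstream of the distant hmr-1 start at rank 1958 (4446 in replicate 1 and 1566 in replicate 2). It had no TAAT within 50 bp. Another, 8216 bp downstream, was at rank 2612 with a pair of TAATTG words, and it ranked 1315 in replicate 1 and 14431 in replicate 2. Its nearest start site was that of Y52B11B.1, 2711 bp away.

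The remaining genes had no thresholded summit. cdh-8 had 13 relaxed summits, of which the strongest, at rank 1507, lay in an intron 2392 bp downstream of the start shared by 8 of its 9 transcripts. Its ranks, 2106 and 2063, were the closest between replicates of any summit at the 10 genes among the first 3000. It had TAATTG at the edge of the window. At casy-1 the strongest of 8 summits, at rank 2539 with TAATTA (1843 and 7507), lay beyond the end of the gene and 209 bp upstream of the start of its neighbour B0034.2. The summit nearest to a casy-1 start was 300 bp downstream of the first one, at rank 4405, and was in replicate 1 at 5144. Replicate 2 had no summit within 100 bp of it, but had an overlapping peak at rank 11016 with its summit 438 bp downstream of that start. cdh-5 had 4 summits and its strongest was in a 3′ UTR, nearer to the start of F08B4.8. cdh-3 had 3 summits, all upstream of the gene, and cdh-7 had 2, and none of these 5 had TAATTA or TAATTG within 50 bp.

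Summits shared with the replicates became fewer from the strongest ranks to the weakest, at the cadherin genes and over the whole list. The combined ranks and the thresholded list were drawn from these same replicates, so this is a description only. Of the 133 relaxed summits at the cadherin genes, 49 (36.8%) had a summit within 100 bp in both replicates, against 29.7% of all relaxed summits, 75 had one in 1 replicate and 9 in neither. All 7 thresholded summits and all 9 of ranks 999 to 3000 had one in both, where 94.7% and 82.6% of all summits of those ranks did. Of the 36 beyond rank 3000 and up to 10000 the share was 58.3%, and of the 81 beyond rank 10000 it was 14.8%, against 57.5% and 11.5% of all summits.

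The core word was then counted over all the summits. After the 5 of 7 thresholded summits given above, it was within 50 bp of 6 of the 9 summits at ranks 999 to 3000 (66.7%, 29.9 to 92.5%), against 38.0% of all at those ranks. Beyond rank 3000 and up to 10000 it was at 9 of 36 (12.1 to 42.2%), against 30.6%, and beyond that at 17 of 81 (21.0%, 12.7 to 31.5%), against 22.5%. Over all 133 it was 27.8% (20.4 to 36.3%), against 25.7% of the relaxed list and 12.4% of windows of that width that tile the nuclear genome. In windows of the same width centred 500 bp to each side of these 133 summits it was in 22 of 266 (8.27%). The form TAATTA was at 4 of the 7 thresholded summits, against 18.9% of all thresholded summits, and TAATTG at 1 of 7, against 19.1%. The intervals cover counting error over summits only, and summits of 1 gene are not independent.

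**Figure D4:**
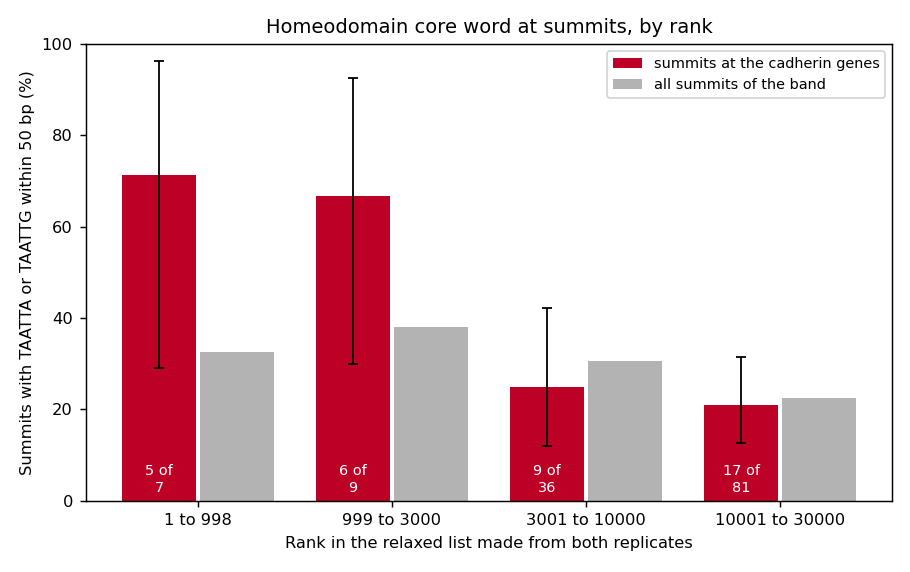
Percent of summits with TAATTA or TAATTG within 50 bp, by rank in the relaxed list made from both replicates, for summits at the 10 cadherin genes (red, with exact 95% binomial intervals and counts) and for all summits of the same ranks (grey). The red bars stand for 5 of 7, 6 of 9, 9 of 36 and 17 of 81 summits from the strongest ranks to the weakest.

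The other cadherin superfamily genes in the annotation with a cdh name, cdh-9 and cdh-10, were set beside the 10. cdh-9 had a thresholded summit at rank 393, stronger than any of the 7, with ranks 362 and 376 in the replicates. It lay 4193 bp upstream of the cdh-9 start on X and only 35 bp from a tRNA gene, and had no core word within 50 bp. Of the 7 summits at the 10 genes the nearest to a tRNA gene was that at cdh-12, 2606 bp away. The next cdh-9 summit lay in an intron, 563 bp downstream of a cdh-9 start, at rank 1157 (810 in replicate 1 and 2929 in replicate 2). It too had no core word within 50 bp. cdh-10 had no thresholded summit. Its strongest, at rank 2005, had TAATTA and TAATTG and lay 222 bp upstream of the start of C45G7.13, a gene inside cdh-10.

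Junction and polarity partners of the cadherins were counted in the same way. Of 17 such genes, 3 had a thresholded summit (17.6%, against 10.2% of protein-coding genes). Among the 2110 protein-coding genes with a span of at least 12.7 kb the share was 16.9%. The spans of these 3 partners differed, at 10.7 kb for hmp-2, 13.4 kb for prkl-1 and 35.7 kb for ajm-1. Neither share was matched to the spans of the 17, so no excess is read from the 3. At hmp-2, the beta-catenin that binds HMR-1, a summit at rank 136 (134 and 152 in the replicates) lay 1385 bp upstream of the hmp-2 start but 205 bp upstream of that of K05C4.7. At prkl-1, the Prickle relative, an intronic summit with the core word ranked 481 (465 and 672). At ajm-1, an apical junction protein, a summit 4587 bp upstream ranked 929 (3666 and 781) and was nearer to the start of F47E1.1. The other 14, among them hmp-1 (the alpha-catenin), jac-1 (the p120 catenin), vang-1 (the Van Gogh relative), dlg-1 and let-413, had none. Their strongest relaxed summits ran from rank 1017 at sax-7 to 9360 at dsh-1. Those named here were at 1682 for hmp-1, 7061 for jac-1, 1479 for vang-1, 1057 for dlg-1 and 2468 for let-413. Over the 17 genes, relaxed summits per kb ran from 0.294 at jac-1 to 1.07 at dlg-1, which was denser than hmr-1.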

How the data were processed

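ChIP-seq peak lists of 2 biological replicates, 1 group, were used as deposited, in ce11 (WBcel235) coordinates. The text files that the authors deposited beside them show that a relaxed list was made for each replicate against 1 shared control alignment and another from both replicates, and that the thresholded list, here the strongest peaks of the last, came from an irreproducible discovery rate step. The sources used here give no aligner, peak caller or cutoff. The signal value that the authors deposited for each peak has no stated scale and was used only to rank peaks within a list. The −log10 q-value that the authors deposited played no part. The summit offset that the authors deposited gave summit positions, which are 1-based here. The labels name ceh-43 as the antibody in one field and an antibody to the fluorescent protein in another. Read depth is unknown from these lists.

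Genes, transcripts and start sites came from Ensembl release 115. Start sites are annotated ones, which for many worm genes lie at or near the start codon. Each summit was given 1 position, promoters first, then exons by part, introns, other transcripts and the space between genes. Summits within 100 bp were taken as shared, and the nearest gave the rank. TAATTA and TAATTG were searched on both strands. Shares have exact (Clopper-Pearson) 95% intervals from scipy 1.17.1. The genes, lists and words were chosen with earlier results of these data known, and no test was made. All 10 genes were named, with cdh-9, cdh-10, those of the 17 partners with a thresholded summit and any gene with a start nearer to a thresholded summit. Other partners and neighbours were named after their values were seen. The scripts were tested on planted summits and words. Alternatives covered the list, span, assignment, shared distance, window, word, promoter length and each replicate alone.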

Additional observations from a re-analysis of the deposited data

How the results depend on the processing

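Only cdh-4 kept a thresholded summit in the stronger 499 peaks, so that 1 gene, 1 summit and 100% with the core word were left. With the gene body alone, 3 genes had a summit, without cdh-4 and fmi-1, whose summits lie upstream. With as many of the strongest peaks of 1 replicate in place of the thresholded list, that is with the other left out, 3 to 5 genes had a summit, 3 to 8 summits were counted and 87.5% to 100% of them had the core word. The lower counts were those without replicate 1, where fmi-1 and hmr-1 had none. Spans of 1000 to 10000 bp around start sites, and assignment by the nearest start, gave the same 5 genes and 7 summits. With 50 bp in place of 100 bp, 2 of the 7 summits were shared with both replicates, and with 200 bp or overlapping intervals all 7. With a window of 100 bp, all 7 thresholded summits at the cadherin genes (100%) and 44.4% of their relaxed ones had the core word. With 25 bp, 18.0% of their relaxed ones did. No share over all summits is given for these windows or for single replicates, so these shares have no comparison. For relaxed summits at the cadherin genes the share was 15.0% for TAATTA alone, against 12.5% of the whole relaxed list. For TAAT it was 67.7% in both. With promoters of 500 bp, 0 of the 7 summits were in promoters. Taking the best-ranked summit within 200 bp, chosen after seeing the data, moved cdh-4 in replicate 1 from rank 1998 to 321. No paired analysis was possible because there is 1 group. Read depth and the scale of the signal limit the values to ranks.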

Other observations

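Words of other factor classes were also counted within 50 bp of the summits at the cadherin genes. CCGGAA, the core of ETS-type sites, was at 0 of the 7 thresholded summits (exact 95% interval 0 to 41.0%), against 4.21% of all thresholded summits, and at 9.77% of the 133 relaxed ones, against 7.03% of the relaxed list. The PBX-type word TGATNNAT was at 1 of the 7, the hmr-1 summit of rank 819, which had no TAATTA or TAATTG within 50 bp in the combined list, against 3.71% of all thresholded summits, and at 5.26% of the 133, against 6.34%. GAGAGA was at 2 of the 7, the fmi-1 summit and the hmr-1 summit of rank 848, against 14% of all thresholded summits, and at 6.77% of the 133, against 7.15%. The cdh-4 summit of rank 999 held 3 overlapping copies of GAGAGA, and the cdh-9 summit beside the tRNA gene held 1. Counts this small describe these summits only.

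The nearest protein-coding start site belonged to another gene at 33 of the 133 relaxed summits and at none of the 7 thresholded ones. At cdh-10 none of the 11 relaxed summits had the cdh-10 start as the nearest. The 3 genes with a summit among the strongest peaks of replicate 2, cdh-1, cdh-4 and cdh-12, also had one in replicate 1, and fmi-1 and hmr-1 had one in replicate 1 alone. Those 2 genes had 5 of the 8 cadherin summits in that replicate's strongest peaks (as many as the thresholded list holds) in replicate 1 and 0 of the 3 in replicate 2. A difference between 2 replicates of 1 group has no replicate check, and its cause was not tested.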
